A study of Mus musculus with 8 samples.

Results

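BCR-ABL1 cells and splenic B cells, both lacking the fluorescence of an Aid-GFP reporter, were compared across genes on mouse Affymetrix expression arrays. The members were all arrays with the titles of those groups, which gave 4 of the 8 arrays of the series. The first group, 2 arrays, held GFP-negative cells of bone marrow origin carrying BCR-ABL1, the fusion kinase of the Philadelphia chromosome. The second group, 2 arrays, held GFP-negative splenic B cells stimulated with LPS, a bacterial cell wall component, and IL-4, a T cell cytokine. Both sources carried the Aid-GFP reporter, in which GFP marks cells expressing AID, the deaminase of class switching and somatic hypermutation. The other 4 arrays held the GFP-positive cells of the same 2 sources, 2 arrays each, and are used here to show where the GFP-negative difference is another. Stimulation was given for the splenic cells and not for the BCR-ABL1 cells, so source, organ and stimulation cannot be told apart. The labels name no strain, age, duration of culture, vector or sorting gate. Nothing in them says that the 2 arrays of a group came from separate mice or cultures, so a p-value reflects only how these arrays scatter, which may be technical.

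B cells begin in the marrow as pro-B and pre-B cells, which recombine their immunoglobulin genes with the RAG enzymes and display a heavy chain with a surrogate light chain of VpreB and lambda5. Mature B cells of the spleen carry surface immunoglobulin, CD20, CD23 and MHC class II, and divide after LPS and IL-4, which act through Toll-like receptor 4, NF-kB and STAT6. BCR-ABL1 is a constitutively active tyrosine kinase known to signal through STAT5, RAS and ERK, and in mice it transforms early B-lineage cells.

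Values are signals of the deposited table after quantile normalization, which gives every array the same distribution, with signals under a floor of 32 set to 32. Each gene is represented by its brightest tested probe set. Signals are comparable between arrays for a gene and not between genes. Differences are log2 of BCR-ABL1 minus spleen, so 1 is a 2-fold higher signal in BCR-ABL1 cells, and positive numbers mean higher there. A gene was called when its p-value from limma, adjusted by Benjamini-Hochberg over all genes, was under 0.05. Where both arrays of a group lay at the floor, the difference is a lower bound, and where 1 did, it rests in part on the floor. Unless GFP-positive is written, BCR-ABL1 arrays and spleen arrays are the GFP-negative ones. Genes of the X and Y chromosomes were left out, which left 11851 autosomal genes of 12223 tested.

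Of the 11851 genes, 9281 (78.3%) were called, 5380 (45.4%) higher and 3901 (32.9%) lower in BCR-ABL1 cells. A call with at least a 2-fold difference was made for 2736 genes (23.1%) higher and 1837 (15.5%) lower. In the GFP-positive arrays the same comparison called 5955 genes (50.2%), 2921 higher (24.6%) and 3034 lower (25.6%). The median difference was 0.15 in the GFP-negative and -0.05 in the GFP-positive arrays. The difference between the comparisons, tested as a contrast of its own, was called for 8166 genes (68.9%), 4835 (40.8%) more positive and 3331 (28.1%) more negative in the GFP-negative arrays. With so large a share called, a count within a gene list is read below against these percentages. The split of calls depended on scale. It was 58.0% higher with quantile normalization, 68.5% on the deposited scale and 73.0% after shifting arrays to the same median, with the median gene at 0.15, 0.38 and 0.50. With 2 arrays against 2, the smallest two-sided p of an exact permutation test is 0.333, and calls depend on the variance model of limma.

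The spleen GFP-negative arrays stood apart from the other 6. Their 2% trimmed mean deposited intensities averaged 487, against 590 in the BCR-ABL1 GFP-negative group and 591 to 593 in the GFP-positive groups. The bacterial bioB spike-in signal was 3.11 times that of the BCR-ABL1 arrays, and the cre spike-in 1.57 times. The 3' to 5' signal ratio of Gapdh, a measure of RNA integrity, was 1.90 against 1.44, and that of Actb 1.51 against 1.29. Of 14 tested genes of RNA quality and tissue dissociation, 6 were higher and 7 lower in BCR-ABL1 cells. That was 42.9% and 50%, beside 45.4% and 32.9% of all genes. Mean Spearman correlation over probe sets was 0.827 between the BCR-ABL1 and spleen arrays and 0.846 between the spleen GFP-negative and GFP-positive arrays. It was 0.954 between the BCR-ABL1 GFP-negative and the spleen GFP-positive arrays. Every GFP-negative difference below rests on the 2 spleen arrays. The GFP-positive comparison, whose group means leave them out, is therefore given for most gene lists and for many of the genes named. It is not independent of them, because all arrays were normalized, filtered and fitted together and share a variance estimate for each gene. It called 5955 genes in that fit and 6754 with only the 4 GFP-positive arrays in the fit. The part of the technical differences above in the results was not tested.

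The spleen GFP-negative fraction held RNA of other blood cells. Neutrophil genes were the clearest case, with all 16 tested members of 18 with a probe set lower in BCR-ABL1 cells and a median difference of -6.21. The GFP-positive comparison gave 2 lower and 0 higher by limma, with a median of -0.04. S100a8, which codes for a calcium-binding protein of neutrophil cytosol, read 32 in both BCR-ABL1 arrays and 19564 and 18768 in the spleen arrays, a difference of -9.23 ± 0.11 (SE, n = 2 against 2; adjusted p = 1e-09). Its signals were 32.6 and 32 in the BCR-ABL1 GFP-positive arrays and 32.8 and 33.8 in the spleen GFP-positive arrays. Camp, the cathelicidin of neutrophil granules, read 32 in both BCR-ABL1 arrays and 7697 and 8992 in the spleen arrays, and Mpo, myeloperoxidase, 32 in both BCR-ABL1 arrays and 2298 and 2050.4 in the spleen arrays. Ngp, another granule protein gene, read 32 in both BCR-ABL1 arrays and 6842 and 6561 in the spleen arrays. The spleen GFP-negative arrays were high for all 4 genes and the other 6 arrays lay at or near the floor. The summed signal of the 18 genes was 720 and 717 in the BCR-ABL1 arrays, 86499 and 87248 in the spleen arrays and 1137 and 1247 in the spleen GFP-positive arrays. The mean signal exceeded the filter for 16 members in the spleen arrays, 2 in the BCR-ABL1 arrays and 5 in the spleen GFP-positive arrays.

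Monocyte and macrophage, T cell and NK cell genes were also mostly lower in BCR-ABL1 cells, but their signals did not all lie near the floor in the spleen GFP-positive arrays. Of 16 tested monocyte and macrophage genes 15 were lower and 1, Mrc1, was higher in BCR-ABL1 cells, with a median of -4.76. Csf1r, the receptor that maintains macrophages, read 32 in both BCR-ABL1 arrays and 4819 and 4576 in the spleen arrays and 32 in all 4 GFP-positive arrays. Lyz2, a myeloid lysozyme gene, read 299 and 365 in the BCR-ABL1 arrays and 10799 and 9339 in the spleen arrays, a difference of -4.93 ± 0.17 (SE, n = 2 against 2; adjusted p = 3.65e-08), but 403 and 395 in the BCR-ABL1 GFP-positive arrays and 70.8 and 52 in the spleen GFP-positive arrays. Mrc1, a mannose receptor gene, read 137 and 148 in the BCR-ABL1 arrays and 32 in both spleen arrays. The summed signal of the 25 genes with a probe set was 1965 and 2045 in the BCR-ABL1 arrays, 46872 and 44818 in the spleen arrays and 6081 and 5899 in the spleen GFP-positive arrays. Of 18 tested T cell genes 17 were lower and Cd247 higher, with a median of -3.47. Cd3e, a chain of the T cell receptor complex, read 32 and 39.3 in the BCR-ABL1 arrays and 2955 and 3181 in the spleen arrays, and Bcl11b, a factor required for T cell commitment, 32 in both BCR-ABL1 arrays and 2394 and 2645 in the spleen arrays. Cd247, the zeta chain, had probe sets that disagreed, since its brightest gave 1.66 and another gave -4.31. NK cell genes counted 10 lower and 1, Cd160, higher of 12 tested, with a median of -3.93. The value of Cd160, 1.19 ± 0.27 (adjusted p = 0.00338), was 0.28 and not called with the mean of its probe sets. The summed signals of the T cell genes were 5888 and 6023 against 25904 and 24877, and those of the NK cell genes 1551 and 1571 against 14575 and 13388. The spleen GFP-positive arrays gave 5336 and 5920 for T cell genes and 6266 and 6390 for NK cell genes, so the NK cell sum of the spleen GFP-negative arrays was 2.21 times that of the GFP-positive ones. By the GFP-positive comparison 3 monocyte and macrophage genes were higher and 7 lower, 4 T cell genes higher and 2 lower, and 1 NK cell gene higher and 6 lower.

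Dendritic cell genes were lower in 10 of 11 tested, with a median of -1.01, and Itgax, the integrin of dendritic cells, read 32 in both BCR-ABL1 arrays and 948 and 1049 in the spleen arrays. The summed dendritic cell signals were 10899 and 11370 in the BCR-ABL1 arrays, 19560 and 19866 in the spleen arrays and 15974 and 16851 in the spleen GFP-positive arrays. Mast cell, basophil and eosinophil genes were lower in 5 and higher in 1 of 6, platelet and megakaryocyte genes lower in 2 of 4, and stromal and endothelial genes lower in 5 and higher in 2 of 7. Erythroid genes were higher in 2 of 4, Car2, a carbonic anhydrase, and Tfrc, the transferrin receptor, which dividing cells of other lineages also carry. Many members of these lists passed the filter on low signals through the spleen GFP-negative arrays alone and had to differ, so their counts and medians describe the fraction and support nothing further. In bulk RNA, fewer cells of a type and less RNA per cell cannot be told apart.

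**Figure D1:**
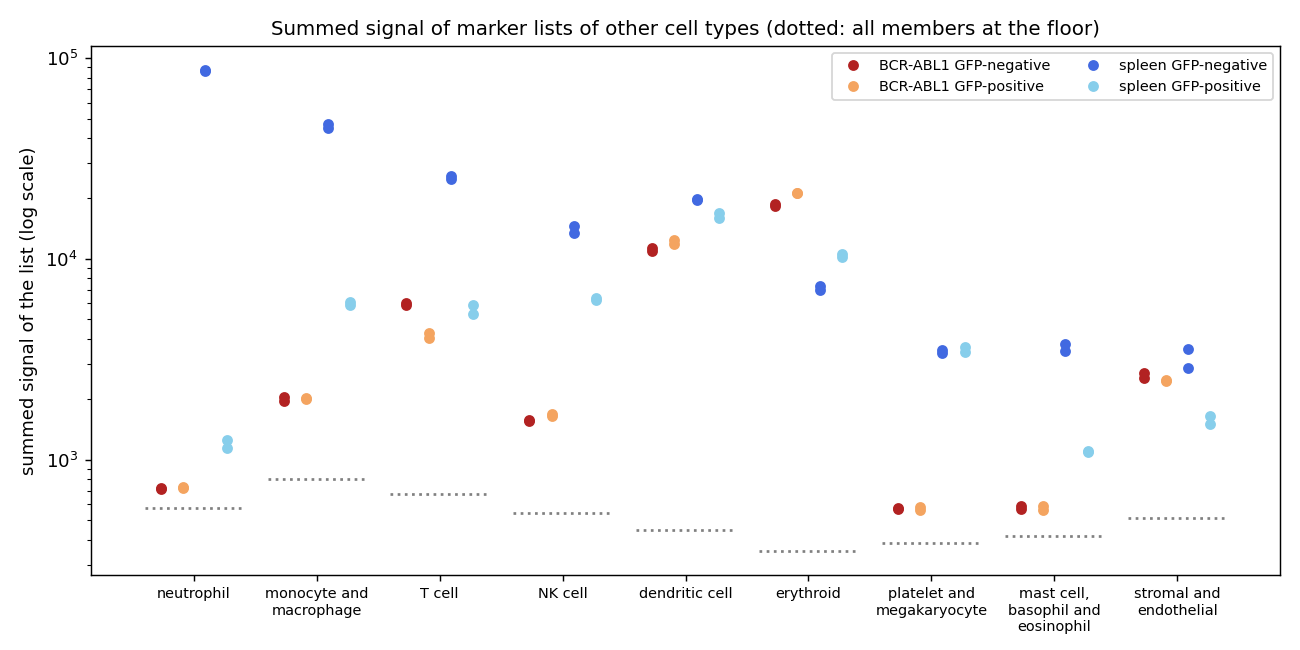
Summed quantile normalized signal (vertical axis, log scale) of 9 marker lists of other cell types in each of the 8 arrays, with 2 points per group and a dotted line where every member would lie at the floor. The neutrophil sums of the spleen GFP-negative arrays, 86499 and 87248, lie far above the 1247 and 1137 of the spleen GFP-positive arrays and above both BCR-ABL1 groups.

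Genes of the pre-B stage and of recombination were higher in BCR-ABL1 cells in 16 and lower in 7 of 25 tested, 64% and 28% beside 45.4% and 32.9% of all genes, with a median of 1.53. In the GFP-positive arrays 20 were higher and 3 lower, with a median of 3.37. Vpreb1 codes for a part of the surrogate light chain and had the largest positive difference among the autosomal genes tested. It read 16997 and 16630.2 in the BCR-ABL1 arrays and 32 and 36.1 in the spleen arrays, a difference of 8.95 ± 0.096 (SE, n = 2 against 2; adjusted p = 1e-09). In the GFP-positive arrays it read 16588 in both BCR-ABL1 GFP-positive arrays and 233 and 199.8 in the spleen GFP-positive arrays, so the BCR-ABL1 arrays of both fractions were high and all 4 spleen arrays low. Vpreb3, whose product associates with immunoglobulin chains in early B cells, read 11286 and 11519 in the BCR-ABL1 arrays and 1459.5 and 1626 in the spleen arrays, a difference of 2.89 ± 0.068 (adjusted p = 6.09e-09).

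The recombination enzymes followed the same order. Dntt, terminal transferase, which adds nucleotides at immunoglobulin joints, read 8026 and 7692 in the BCR-ABL1 arrays and 167 and 168 in the spleen arrays, a difference of 5.55 ± 0.11 (adjusted p = 3.41e-09). Rag1, the catalytic subunit of the recombinase, read 1007 and 939 in the BCR-ABL1 arrays and 69.1 and 44 in the spleen arrays, a difference of 4.14 ± 0.2 (adjusted p = 2.41e-07). Its GFP-positive signals were 2849 and 2646 in the BCR-ABL1 GFP-positive arrays and 32 in both spleen GFP-positive arrays, and the GFP-negative difference minus the GFP-positive one was -2.28 ± 0.28 (adjusted p = 0.000128). Rag2, its partner, read 520.2 and 535 in the BCR-ABL1 arrays and 32 in both spleen arrays, a difference of at least 4.04 ± 0.11 (adjusted p = 1.39e-08). None of the BCR-ABL1 and spleen values overlapped for these 3 genes. The share of all genes without overlap was not counted, and 78.3% of all genes were called. The differences of Dntt, Rag2 and Vpreb3 in the GFP-positive arrays were 7.42 ± 0.11, 4.76 ± 0.11 and 3.37 ± 0.068. Xrcc6, a subunit of the Ku end-joining complex, differed by 2.39 ± 0.056 (adjusted p = 5.92e-09).

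Surface and regulatory genes of early B cells were also higher. Enpep, the BP-1 aminopeptidase that marks late pro-B and pre-B cells, read 3826 and 3498 in the BCR-ABL1 arrays and 32 in both spleen arrays, a difference of at least 6.84 ± 0.15 (adjusted p = 4.57e-09). Its BCR-ABL1 GFP-positive signals were lower, 950.2 and 713. Cd93, a marker of immature B cells, read 7802 and 7277 in the BCR-ABL1 arrays and 1187 and 1003 in the spleen arrays, and Bst1, the BP-3 antigen of marrow B cells, 6863 and 6874 in the BCR-ABL1 arrays and 701 and 683 in the spleen arrays. Their differences were 2.79 ± 0.082 (adjusted p = 1.71e-08) and 3.31 ± 0.08 (adjusted p = 6.75e-09), with 3.60 ± 0.082 and 4.94 ± 0.08 in the GFP-positive arrays. Erg, an ETS factor of progenitors, read 1167 and 1293 in the BCR-ABL1 arrays and 36.9 and 32 in the spleen arrays. Sox4, a factor required for pro-B expansion, read 5356 and 4709.5 in the BCR-ABL1 arrays and 492 and 182 in the spleen arrays, a difference of 4.07 ± 0.43 (adjusted p = 3.64e-05) that was 2.43 with the mean of its probe sets. Tcf3, which codes for the E2A factors, differed by 1.00 ± 0.12 (adjusted p = 7.76e-05), or 1.56 after shifting arrays to the same median.

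Other members of the list were lower or could not be placed. Nt5e, the CD73 ectoenzyme, read 285 and 294 in the BCR-ABL1 arrays and 1689 and 1850.3 in the spleen arrays, a difference of -2.61 ± 0.096 (adjusted p = 5.72e-08), or -0.67 with the mean of its probe sets. Ikzf2, a zinc finger factor known from T cells, read 32 in both BCR-ABL1 arrays and 746 and 688 in the spleen arrays and 32 in all 4 GFP-positive arrays. Ctla4, an inhibitory receptor best known from T cells, read 69.7 and 81 in the BCR-ABL1 arrays and 1266 and 1261 in the spleen arrays and 142 and 117 in the BCR-ABL1 GFP-positive arrays and 2011 and 2333 in the spleen GFP-positive arrays. Il7r, the receptor chain for the growth factor of pre-B cells, which T cells also carry, read 3784 and 3729 in the BCR-ABL1 arrays and 4579 and 4553 in the spleen arrays. Its brightest probe set gave -0.28 ± 0.1 (adjusted p = 0.0314), a call that was lost in each fit without 1 of these 4 arrays, with values from -0.29 to -0.27. The other probe set gave 0.75 over probe sets, so the direction of Il7r was not settled. In the GFP-positive arrays Il7r read 4868 and 4776 in the BCR-ABL1 GFP-positive arrays and 32.6 and 40.6 in the spleen GFP-positive arrays, a difference of 7.05 ± 0.1 (adjusted p = 2e-09). Igll1, the lambda5 chain, was also uncertain. Its brightest probe set gave -1.73 ± 0.21 (adjusted p = 7.25e-05), while its other probe set read 7667 and 7537 in the BCR-ABL1 arrays and 63.9 and 90.9 in the spleen arrays, a difference of 6.64 ± 0.17. Lambda chain genes share sequence, and the cause of the disagreement was not tested. Lef1, a Wnt pathway factor of pro-B cells, differed by -0.03 ± 0.12 (adjusted p = 0.845) and was not called, but its other probe set gave 2.31.

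Promoters of early B cell genes are shown because several of these genes were high together in BCR-ABL1 cells. The sequences are RefSeq's for GRCm38.p6, from 250 bases before to 50 after the start, written along the gene, and all 7 genes searched were found. The letters CAGGTG, an E-box of the kind E2A binds, were sought on both strands, and 5 of 7 promoters held them (Vpreb1, Vpreb2, Igll1, Cd79a and Rag1), beside 20.2% of 32851 promoters of the same length. The letters CCCNNGGG, the core of the EBF1 motif, lay in 1 of 7 (Igll1), beside 13.7%. Of the genes with CAGGTG, Cd79a was not called, Vpreb2 had no probe set of its own and Igll1 was uncertain. The promoters of Dntt and Vpreb3, both called higher, did not hold it. The Vpreb1 and Vpreb2 promoters share the sequence around the match. A match describes letters and is no evidence of binding, and a link to the signals was not tested. Capitals mark CAGGTG in Vpreb1 (chr16:16869206-16869505 on the minus strand) and in Rag1 (chr2:101649483-101649782 on the minus strand), beginning 88 and 135 bases before the start.
Vpreb1: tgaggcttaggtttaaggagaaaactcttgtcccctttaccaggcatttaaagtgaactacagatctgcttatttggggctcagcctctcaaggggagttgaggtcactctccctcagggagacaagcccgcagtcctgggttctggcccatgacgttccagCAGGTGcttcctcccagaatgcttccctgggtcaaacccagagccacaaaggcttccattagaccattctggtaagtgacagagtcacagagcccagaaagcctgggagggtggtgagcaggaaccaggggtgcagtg
Rag1: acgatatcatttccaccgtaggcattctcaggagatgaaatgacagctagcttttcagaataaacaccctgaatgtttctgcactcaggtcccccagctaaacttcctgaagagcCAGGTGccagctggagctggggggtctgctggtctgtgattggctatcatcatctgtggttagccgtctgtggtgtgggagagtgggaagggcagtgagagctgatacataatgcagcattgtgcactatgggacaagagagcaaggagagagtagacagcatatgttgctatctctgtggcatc

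Genes shared by B cells of all stages were mostly lower, 17 of 25 against 4 higher, with a median of -0.40. That was 68% lower and 16% higher, beside 32.9% and 45.4% of all genes. Among the GFP-positive arrays 14 were lower and 8 higher, with a median of -0.31. The core of the B cell receptor was present in both sources. Cd79a, the Ig-alpha chain, read 10780.5 and 10997 in the BCR-ABL1 arrays and 10698 and 10896 in the spleen arrays, a difference of 0.01 ± 0.03 (adjusted p = 0.719) that was not called, but was called at 0.09 after shifting arrays to the same median. Cd79b, Ig-beta, read 9182 and 9255 in the BCR-ABL1 arrays and 11600 and 12163 in the spleen arrays, a difference of -0.37 ± 0.036 (adjusted p = 2.25e-05). Blnk, the adaptor below the pre-B and B cell receptors, read 6794 and 6788 in the BCR-ABL1 arrays and 5941 and 5559 in the spleen arrays, a difference of 0.24 ± 0.042 (adjusted p = 0.000742), or 0.47 after shifting arrays to the same median. Ebf1, a lineage factor, differed by -0.40 ± 0.053 (adjusted p = 0.000135) with its brightest probe set and by 0.96 with the mean of its probe sets, so its direction was not settled. Pax5, the factor that holds B cell identity, read 183 and 187 in the BCR-ABL1 arrays and 83.8 and 55.6 in the spleen arrays, a difference of 1.44 ± 0.19 (adjusted p = 0.000139), or 0.94 with the mean of its probe sets. Its other probe set gave 0.44 and was not called.

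Several surface genes of the pan-B list were among the lower ones, but Cd37 and Cd180 were not called (0.06 and 0.16). Ms4a1, which codes for CD20, read 443 and 576 in the BCR-ABL1 arrays and 8004 and 8011 in the spleen arrays, a difference of -3.99 ± 0.17 (SE, n = 2 against 2; adjusted p = 1.41e-07). It was lower still in the BCR-ABL1 GFP-positive arrays, 32 and 45.4, against 7560.3 and 7192 in the spleen GFP-positive arrays. Cd22, an inhibitory lectin of B cells, read 744 and 728 in the BCR-ABL1 arrays and 4905 and 4716 in the spleen arrays, a difference of -2.71 ± 0.092 (adjusted p = 3.71e-08). Ly86, the MD-1 partner of CD180, read 1082 and 1148 in the BCR-ABL1 arrays and 6572 and 6785 in the spleen arrays, a difference of -2.58 ± 0.078 (adjusted p = 2e-08). For all 3 genes the difference was closer to 0 in the GFP-negative than in the GFP-positive arrays, with contrasts of 3.61 ± 0.24, 2.12 ± 0.13 and 2.73 ± 0.11 (adjusted p = 4.69e-06, 2.84e-06 and 3.51e-07). Other lower members of the list, Ralgps2, Fcrla and Bank1, differed by -5.43 ± 0.13, -4.07 ± 0.11 and -2.30 ± 0.064.

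Mature B cell genes were lower in 19 of 23 tested, 82.6% beside 32.9% of all genes, with 0 higher and a median of -3.12. On the deposited scale 1 and after shifting arrays to the same median 3 were higher. The GFP-positive counts were 17 lower and 4 higher, with a median of -1.31. Fcer2a, which codes for CD23 and is induced by IL-4, read 32 and 35.3 in the BCR-ABL1 arrays and 3469 and 3059 in the spleen arrays, a difference of -6.60 ± 0.13 (SE, n = 2 against 2; adjusted p = 2.86e-09). Gpr183, a receptor that positions B cells in follicles, read 32 in both BCR-ABL1 arrays and 2792 and 2553 in the spleen arrays, at least 83.4-fold lower. Cd40, the receptor for T cell help, read 198 and 240.2 in the BCR-ABL1 arrays and 6531 and 7400.1 in the spleen arrays, a difference of -4.99 ± 0.13 (adjusted p = 9.14e-09). Bcl6, the repressor of the germinal centre, read 158 and 139.8 in the BCR-ABL1 arrays and 5413 and 5083 in the spleen arrays, a difference of -5.14 ± 0.1 (adjusted p = 2.86e-09). The groups did not overlap for any of the 4, but the share of all genes without overlap was not counted. Fcer2a, Gpr183, Cd40 and Bcl6 differed in the GFP-positive arrays by -6.62 ± 0.13, -6.47 ± 0.12, -5.36 ± 0.13 and -3.50 ± 0.1, and the contrast between fractions was called for Bcl6 (-1.64 ± 0.14, adjusted p = 1.88e-05). Homing receptors were lower as well, with Ccr6, Ccr7 and Cxcr5 at -6.57 ± 0.13, -3.63 ± 0.07 and -1.91 ± 0.078. Klf2 and S1pr1, which govern exit from lymphoid organs, differed by -3.06 ± 0.12 and -3.45 ± 0.14. Tnfrsf13c, the BAFF receptor, differed by -1.18 ± 0.071. T cells also carry Ccr7, Klf2 and S1pr1, and the summed T cell signal of the spleen arrays was 4.26 times that of the BCR-ABL1 arrays. In the GFP-positive arrays Ccr7, Klf2 and S1pr1 differed by -2.57, -2.00 and -0.70. The T cell sums there were 4042 and 4248 in the BCR-ABL1 GFP-positive and 5336 and 5920 in the spleen GFP-positive arrays. The part of T cells in these differences was not tested.

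For Cxcr4 and Icosl the spleen arrays differed between fractions. Cxcr4, a marrow homing receptor, read 5643 and 5423 in the BCR-ABL1 arrays and 12691 and 11069.6 in the spleen arrays and 5478 and 4958 in the BCR-ABL1 GFP-positive arrays and 2378 and 2189.6 in the spleen GFP-positive arrays. It was lower in BCR-ABL1 cells in the GFP-negative and higher in the GFP-positive comparison. Icosl, the ligand of ICOS, read 428 and 407 in the BCR-ABL1 arrays and 6885 and 7046 in the spleen arrays and 475 and 511 in the BCR-ABL1 GFP-positive arrays and 443 and 494 in the spleen GFP-positive arrays, and its difference of -4.06 ± 0.089 (adjusted p = 4.31e-09) was -2.49 with the mean of its probe sets. In the mature B list the contrast between fractions was called more negative in the GFP-negative arrays for 16 of 23 genes and more positive for 2, beside 28.1% and 40.8% of all genes.

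**Figure D2:**
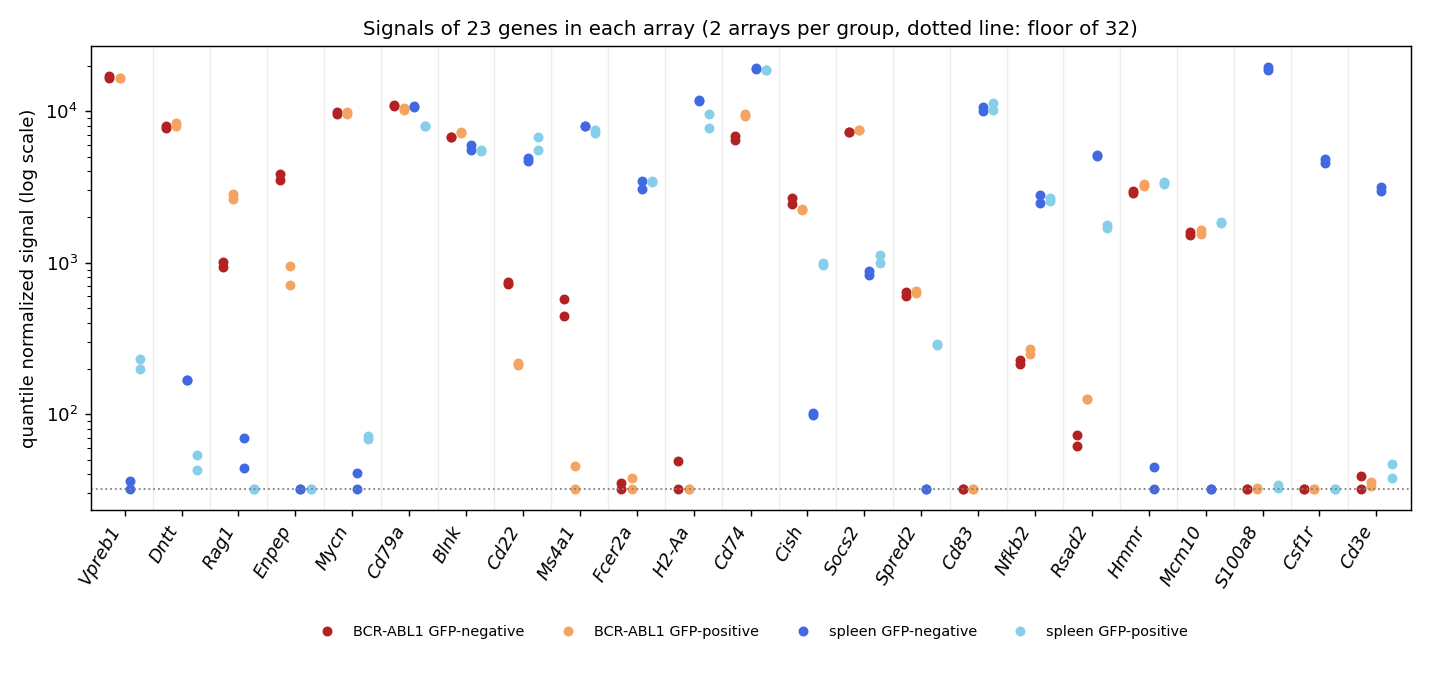
Quantile normalized signals (vertical axis, log scale) of 23 genes in each of the 8 arrays, with 2 points per group and a dotted line at the floor of 32. Vpreb1 reads 16997 and 16630 in BCR-ABL1 GFP-negative arrays and 32 and 36.1 in spleen GFP-negative arrays, the reverse of Cd83 and Fcer2a, and S100a8 is high in the spleen GFP-negative arrays alone.

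MHC class II genes were lower in 14 and higher in 1 of 15 tested, 93.3% beside 32.9% of all genes, with a median of -1.89. H2-Aa, an alpha chain that presents antigen, read 32 and 49.1 in the BCR-ABL1 arrays and 11634 and 11898 in the spleen arrays, a difference of -8.21 ± 0.19 (SE, n = 2 against 2; adjusted p = 5.88e-09), with -8.07 ± 0.19 in the GFP-positive arrays. H2-Eb1, a beta chain, read 58.8 and 67.5 in the BCR-ABL1 arrays and 12036 and 11377 in the spleen arrays, a difference of -7.54 ± 0.1 (adjusted p = 1e-09). H2-Ab1, another beta chain, read 1673 and 1794 in the BCR-ABL1 arrays and 11766 and 11175 in the spleen arrays, a difference of -2.73 ± 0.058 (adjusted p = 3.83e-09). Ciita, the transactivator that class II genes require, read 32 in both BCR-ABL1 arrays and 1318 and 1793 in the spleen arrays, at least 48-fold lower, a difference of -5.59 ± 0.17 that was -3.66 with the mean of its probe sets. Cd74, the invariant chain, differed less, with 6409 and 6807 in the BCR-ABL1 arrays and 18886 and 19423 in the spleen arrays and a difference of -1.54 ± 0.035 (adjusted p = 4.9e-09). The peptide editors H2-DMa and H2-DMb2 differed by -2.36 ± 0.074 and -2.62 ± 0.04, and their B cell modulators H2-Oa and H2-Ob by -1.31 ± 0.053 and -1.89 ± 0.099. The endosomal enzymes Ctss and Ifi30 differed by -0.91 ± 0.057 and -0.33 ± 0.051, the latter -0.18 after shifting arrays to the same median. The exception was Rfxap, a subunit of the RFX complex on class II promoters, higher by 0.96 ± 0.092 (adjusted p = 1.86e-05), or 1.64 after shifting arrays to the same median. In the GFP-positive arrays 12 of 15 were lower and 0 higher, with a median of -0.98.

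Promoters of class II genes are shown because their genes were low together. The Y box of class II promoters, CTGATTGG on either strand, was chosen after the values were seen. It lay in 3 of 7 promoters of the 6 genes found of 7 searched (H2-Aa, H2-Eb1 and H2-Oa), beside 4.1% of all promoters. The promoters of H2-DMa, H2-DMb2 and H2-Ob, also called lower, did not hold it. Such a match is no evidence of binding, and a link to the signals was not tested. Capitals mark it in H2-Aa (chr17:34287774-34288073 on the minus strand) and H2-Eb1 (chr17:34305617-34305916 on the plus strand), beginning 51 and 62 bases before the start.
H2-Aa: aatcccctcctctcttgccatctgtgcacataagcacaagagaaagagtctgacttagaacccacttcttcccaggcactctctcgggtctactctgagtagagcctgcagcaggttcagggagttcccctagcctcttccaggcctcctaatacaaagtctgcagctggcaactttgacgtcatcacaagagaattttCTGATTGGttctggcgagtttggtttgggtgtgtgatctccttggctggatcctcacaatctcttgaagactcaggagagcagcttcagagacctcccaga
H2-Eb1: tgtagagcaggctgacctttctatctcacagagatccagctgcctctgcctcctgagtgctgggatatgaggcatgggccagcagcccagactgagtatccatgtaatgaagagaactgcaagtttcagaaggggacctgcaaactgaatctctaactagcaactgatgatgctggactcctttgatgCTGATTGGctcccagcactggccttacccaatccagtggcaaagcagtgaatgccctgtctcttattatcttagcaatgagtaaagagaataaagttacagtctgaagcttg

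Immunoglobulin and plasma cell genes were lower in 11 and higher in 1 of 14, with a median of -1.14. That was 78.6% and 7.14%, beside 32.9% and 45.4% of all genes. In the GFP-positive arrays 9 were lower and 2 higher, with a median of -1.52. Jchain, which links secreted IgM and IgA, read 238 and 253 in the BCR-ABL1 arrays and 11850.3 and 12231 in the spleen arrays, a difference of -5.62 ± 0.082 (adjusted p = 1.09e-09). Igha and Ighg3, heavy chain constant regions used after switching, differed by -7.13 ± 0.18 and -6.41 ± 0.1. Mean signals of Jchain, Igha and Ighg3 were 12041, 10729 and 5595 in the spleen arrays and 4932, 728 and 2641 in the spleen GFP-positive arrays. Their GFP-positive differences were -2.63, -3.31 and -5.31. The contrasts between fractions, all called, were -2.98, -3.82 and -1.10. Ighm, the mu chain, was present in both sources with 7804 and 7214 in the BCR-ABL1 arrays and 17582 in both spleen arrays, a difference of -1.23 ± 0.059 (adjusted p = 2.56e-07) that was -4.60 with the mean of its probe sets, several of which lay at the floor in BCR-ABL1 cells. Immunoglobulin probe sets share sequence between segments. Prdm1, the factor of plasma cell differentiation, read 80.5 and 65.9 in the BCR-ABL1 arrays and 445 and 438 in the spleen arrays, a difference of -2.60 ± 0.15 (adjusted p = 7.87e-07). Mzb1, a chaperone of antibody secretion, was the member called higher, by 0.47 ± 0.044 (adjusted p = 1.68e-05). Sdc1, the CD138 antigen, read 1560.2 and 1619 in the BCR-ABL1 arrays and 3284 and 3263 in the spleen arrays and 1248 and 1384 in the BCR-ABL1 GFP-positive arrays and 544 and 508 in the spleen GFP-positive arrays, lower in the first comparison and higher in the other.

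Genes known to respond to LPS and IL-4 in B cells were lower in BCR-ABL1 cells in 21 and higher in 5 of 28. That was 75% and 17.9%, beside 32.9% and 45.4% of all genes, and the median was -2.00. In the GFP-positive arrays 23 were lower and 3 higher, with a median of -3.10. Cd83, an activation antigen, read 32 in both BCR-ABL1 arrays and 10047 and 10659 in the spleen arrays, at least 323-fold lower (adjusted p = 1e-09). Its GFP-positive signals were 32 in both BCR-ABL1 GFP-positive arrays and 10179 and 11286 in the spleen GFP-positive arrays. Cd86, the costimulatory ligand, read 32 in both BCR-ABL1 arrays and 2157 and 2534 in the spleen arrays, and Basp1 189 and 209.6 in the BCR-ABL1 arrays and 5973 and 5770 in the spleen arrays. Cd83 and Cd86 were high in all 4 spleen arrays and at the floor in all 4 BCR-ABL1 arrays.

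Other activation genes separated the spleen fractions. Zbtb32, a repressor induced in activated B cells, read 63.4 and 85.6 in the BCR-ABL1 arrays and 259 and 306 in the spleen arrays and 64.1 and 63.4 in the BCR-ABL1 GFP-positive arrays and 4184 and 3745 in the spleen GFP-positive arrays. Nfil3, a bZIP factor induced by IL-4, read 72.7 and 71.5 in the BCR-ABL1 arrays and 299 and 304 in the spleen arrays and 109 and 119 in the BCR-ABL1 GFP-positive arrays and 3741 and 3898 in the spleen GFP-positive arrays. The BCR-ABL1 difference was closer to 0 in the GFP-negative arrays for both, with a contrast of 4.02 ± 0.24 (adjusted p = 2.19e-06) for Zbtb32 and adjusted p = 1.04e-06 for Nfil3. Il6, the cytokine, read 32 in both BCR-ABL1 arrays and 35.4 and 32 in the spleen arrays, a difference of -0.07 ± 0.12 (adjusted p = 0.599) that was called at a floor of 16 (-0.93), and 692 and 672 in the spleen GFP-positive arrays. Il4ra, the IL-4 receptor chain, differed by -2.44 ± 0.09 (adjusted p = 5.84e-08), or -1.43 with the mean of its probe sets. Members higher in BCR-ABL1 cells included Lta, the lymphotoxin gene, with 5073 and 4904 in the BCR-ABL1 arrays and 468 and 326 in the spleen arrays, Tnf with 753 and 618 in the BCR-ABL1 arrays and 187 and 168 in the spleen arrays, and Mif, a cytokine, with 13147 and 13369.9 in the BCR-ABL1 arrays and 5328 and 5535 in the spleen arrays. Their differences were 3.67 ± 0.14, 1.95 ± 0.12 and 1.29 ± 0.041.

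NF-kB genes were lower in 17 of 18 tested, 94.4% beside 32.9% of all genes, with 0 higher and a median of -1.87. In the GFP-positive arrays 17 of 18 were also lower, with a median of -1.22. The member not called in the GFP-negative arrays was Traf2, an adaptor of TNF receptors (-0.01 ± 0.13, adjusted p = 0.946). It was called higher at 0.57 on the deposited scale and 0.68 after shifting arrays to the same median. Nfkb2 and Relb, the subunits of the alternative pathway, read 215 and 226 in the BCR-ABL1 arrays and 2817 and 2480 in the spleen arrays, and 84.5 and 85.7 in the BCR-ABL1 arrays and 1405 and 1694 in the spleen arrays. Bcl3, a nuclear IkB protein, read 94.5 and 102 in the BCR-ABL1 arrays and 2121 and 2303 in the spleen arrays, a difference of -4.49 ± 0.1 (adjusted p = 4.88e-09). Nfkbia, the IkB-alpha inhibitor, read 4606 and 4742 in the BCR-ABL1 arrays and 11269.8 and 11224 in the spleen arrays, a difference of -1.27 ± 0.032 (adjusted p = 8.07e-09). Tnfaip3, the A20 feedback inhibitor, differed by -1.93 ± 0.065 (adjusted p = 3.45e-08), or -0.85 with the mean of its probe sets, and Birc3, an inhibitor of apoptosis, by -2.15 ± 0.061 (adjusted p = 1.48e-08). Traf1 differed by -5.10 ± 0.11 (adjusted p = 4.32e-09), or -3.29 with the mean of its probe sets. Myeloid and T cells also express these genes, and their marker lists were higher in the spleen arrays as given above. The part of those cells in the NF-kB differences was not tested.

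Interferon response genes were lower in 21 and higher in 3 of 25, with a median of -1.81. That was 84% and 12%, beside 32.9% and 45.4% of all genes. In the GFP-positive arrays 23 of 25 were lower, with a median of -1.68. Rsad2, the antiviral enzyme viperin, read 72.8 and 61.4 in the BCR-ABL1 arrays and 5069 and 5123 in the spleen arrays, a difference of -6.25 ± 0.11 (adjusted p = 1.74e-09). Mx1, a GTPase, read 68.2 and 53.6 in the BCR-ABL1 arrays and 1806 and 1849 in the spleen arrays, and Irf7, a factor that amplifies interferon, 119 and 139 in the BCR-ABL1 arrays and 1874 and 2073 in the spleen arrays. Ifit3, of the same pathway, read 228 and 259 in the BCR-ABL1 arrays and 5480.1 and 5712 in the spleen arrays but 593 and 631 in the BCR-ABL1 GFP-positive arrays and 429 and 455 in the spleen GFP-positive arrays, with differences of -4.52 ± 0.096 and 0.47 ± 0.096. The guanylate-binding protein genes Gbp2 and Gbp3 differed by 0.72 ± 0.041 and 0.77 ± 0.15 in the GFP-negative arrays (1.18 for Gbp3 after shifting arrays to the same median) and -0.61 ± 0.041 and -0.49 ± 0.15 in the GFP-positive arrays.

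Among known STAT5 targets 13 were higher and 4 lower of 21, 61.9% and 19% beside 45.4% and 32.9% of all genes, with a median of 1.03. The GFP-positive arrays gave the same counts, 13 and 4, with a median of 0.38. Cish, a feedback inhibitor of cytokine receptors, read 2673 and 2438 in the BCR-ABL1 arrays and 98.7 and 102 in the spleen arrays, a difference of 4.67 ± 0.083 (SE, n = 2 against 2; adjusted p = 1.92e-09). Its spleen GFP-positive signals were 969 and 988, so the difference was larger in the GFP-negative arrays by 3.47 ± 0.12 (adjusted p = 1.69e-07). Socs2, of the same family, read 7311 and 7271 in the BCR-ABL1 arrays and 832 and 875 in the spleen arrays, a difference of 3.09 ± 0.067 (adjusted p = 4.07e-09). Osm, oncostatin M, read 768 and 732 in the BCR-ABL1 arrays and 185 and 146 in the spleen arrays, a difference of 2.19 ± 0.13 (adjusted p = 9.1e-07). The D-type cyclins Ccnd2 and Ccnd3 differed by 1.22 ± 0.045 and 3.09 ± 0.058, the latter 1.88 with the mean of its probe sets. Cdk6, their kinase, read 2466 and 2423 in the BCR-ABL1 arrays and 957 and 1024 in the spleen arrays. Bcl2l1, the survival protein BCL-XL, read 806 and 821 in the BCR-ABL1 arrays and 129 and 162 in the spleen arrays, a difference of 2.49 ± 0.13 (adjusted p = 3.55e-07), or 3.86 with the mean of its probe sets. Pim1, a kinase target, read 8687 and 8430.5 in the BCR-ABL1 arrays and 7947 and 8369 in the spleen arrays and was not called (0.07 ± 0.042 (adjusted p = 0.161)), but was called at 0.23 after shifting arrays to the same median. The 4 lower members included Mcl1, a survival gene, at -0.75, and Bcl6, which STAT5 is known to repress, at -5.14. Whether STAT5 had a part in any of these differences was not tested.

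Genes of ERK feedback and of the early response were higher in 9 (40.9%) and lower in 10 (45.5%) of 22. The shares of all genes were 45.4% and 32.9%. The median of the list was -0.14, which was 0.20 and 0.31 on the other scales. The GFP-positive counts were 10 higher and 8 lower, with a median of 0.09. The phosphatases, the ETS factors and the immediate early genes each held members called in either direction. All 5 Sprouty and SPRED genes tested, inhibitors of the pathway, were called higher. They were not a list of their own and were set apart with the values known, so their count supports nothing further. Spred2, an inhibitor of RAF activation, read 601 and 637 in the BCR-ABL1 arrays and 32 in both spleen arrays, a difference of at least 4.27 ± 0.11, or 2.15 with the mean of its probe sets. Spry1, a Sprouty gene, read 463 and 498 in the BCR-ABL1 arrays and 32 in both spleen arrays, a difference of at least 3.91 ± 0.18, and Etv5, an ETS factor, 2097 and 2052 in the BCR-ABL1 arrays and 155 and 174 in the spleen arrays, a difference of 3.66 ± 0.12 (adjusted p = 3.35e-08). Spry2, Spry4 and Spred1 differed by 0.73 ± 0.085, at least 1.17 ± 0.19 and 2.91 ± 0.28, and Spry4, which lay at 32 in both spleen arrays, was not called at a floor of 64 (0.17). Spry2 gave 1.27 after shifting arrays to the same median. Etv4, the other ETS factor of the list, was lower (-1.69 ± 0.18, adjusted p = 3.07e-05). Of the phosphatases, Dusp6, which acts on ERK, was higher by 0.72 ± 0.12 (adjusted p = 0.000485), while Dusp1, Dusp2 and Dusp4 were lower, at -1.73 ± 0.063, -1.88 ± 0.09 and -3.91 ± 0.15. Immediate early genes went both ways. Jun, a component of AP-1, was higher by 1.31 ± 0.065 (adjusted p = 3.06e-07), and Ier2 was not called (-0.04 ± 0.11, adjusted p = 0.727) but was called higher at 0.53 on the deposited scale and 0.64 after shifting arrays to the same median. Egr1 and Ier3 were lower, at -0.60 ± 0.064 and -3.60 ± 0.19, the former -0.27 after shifting arrays to the same median. Egr2 and Egr3 differed by -5.20 ± 0.16 and -5.36 ± 0.13, the latter -2.79 with the mean of its probe sets, and Fos by -3.26 ± 0.15. Fos, which tissue dissociation also induces, read 145 and 133 in the BCR-ABL1 arrays and 1535 and 1148 in the spleen arrays.

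Mitotic genes were higher in BCR-ABL1 cells in all 31 tested, beside 45.4% of all genes, with a median of 3.59. In the GFP-positive arrays 8 were higher and 2 lower, with a median of 0.02. The contrast between fractions was called more positive for all 31, beside 40.8% of all genes. Hmmr, a spindle-associated receptor, read 2972 and 2904 in the BCR-ABL1 arrays and 44.5 and 32 in the spleen arrays, a difference of 6.28 ± 0.14 (SE, n = 2 against 2; adjusted p = 4.35e-09), or 3.19 with the mean of its probe sets. Its GFP-positive signals were 3223 and 3323 in the BCR-ABL1 GFP-positive arrays and 3406 and 3298 in the spleen GFP-positive arrays. Bub1, a spindle checkpoint kinase, read 2450 and 2505 in the BCR-ABL1 arrays and 60.3 and 34.3 in the spleen arrays and 2523 and 2493 in the BCR-ABL1 GFP-positive arrays and 2944 and 2930.4 in the spleen GFP-positive arrays. Cenpf, a kinetochore protein gene, read 1099 and 1072 in the BCR-ABL1 arrays and 32 in both spleen arrays and 1250.0 and 1226 in the BCR-ABL1 GFP-positive arrays and 1161 and 1067 in the spleen GFP-positive arrays. The spleen GFP-negative arrays were low for these genes, and the other 6 arrays lay within a narrow band. Top2a, topoisomerase II, differed by 3.69 ± 0.049 (adjusted p = 1e-09), or 1.44 with the mean of its probe sets, and Mki67, the Ki-67 antigen, by 2.13 ± 0.071 (adjusted p = 3.33e-08). The summed signal of the list was 113345 and 114880 in the BCR-ABL1 arrays, 16971 and 17608 in the spleen arrays and 111165 and 113512 in the spleen GFP-positive arrays.

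DNA replication genes were higher in 30 and lower in 1 of 31, with a median of 1.57. That was 96.8% and 3.23%, beside 45.4% and 32.9% of all genes. In the GFP-positive arrays 9 were higher and 4 lower, with a median of 0.04. Mcm10, a replication initiation factor, read 1601 and 1523 in the BCR-ABL1 arrays and 32 in both spleen arrays and 1551 and 1649 in the BCR-ABL1 GFP-positive arrays and 1859 and 1814 in the spleen GFP-positive arrays. Cdc6, which loads the helicase, read 2146 and 2063 in the BCR-ABL1 arrays and 32 in both spleen arrays, and Tk1, thymidine kinase, 1891 and 2161 in the BCR-ABL1 arrays and 143 and 138 in the spleen arrays. Mcm2, a helicase subunit, differed by 2.70 ± 0.095 (adjusted p = 4.51e-08), and Pcna, the sliding clamp, by 0.76 ± 0.031 (adjusted p = 9.96e-08). Cdt1, the lower member, differed by -0.18 ± 0.058 (adjusted p = 0.0202) and turned to 0.10 after shifting arrays to the same median. Its call was lost without the second BCR-ABL1 array (-0.16) or without the first spleen array (-0.12). The spleen arrays with low mitotic and replication signals were those with the neutrophil, monocyte and T cell signals given above, and the part of that mixture in these differences was not tested.

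**Figure D3:**
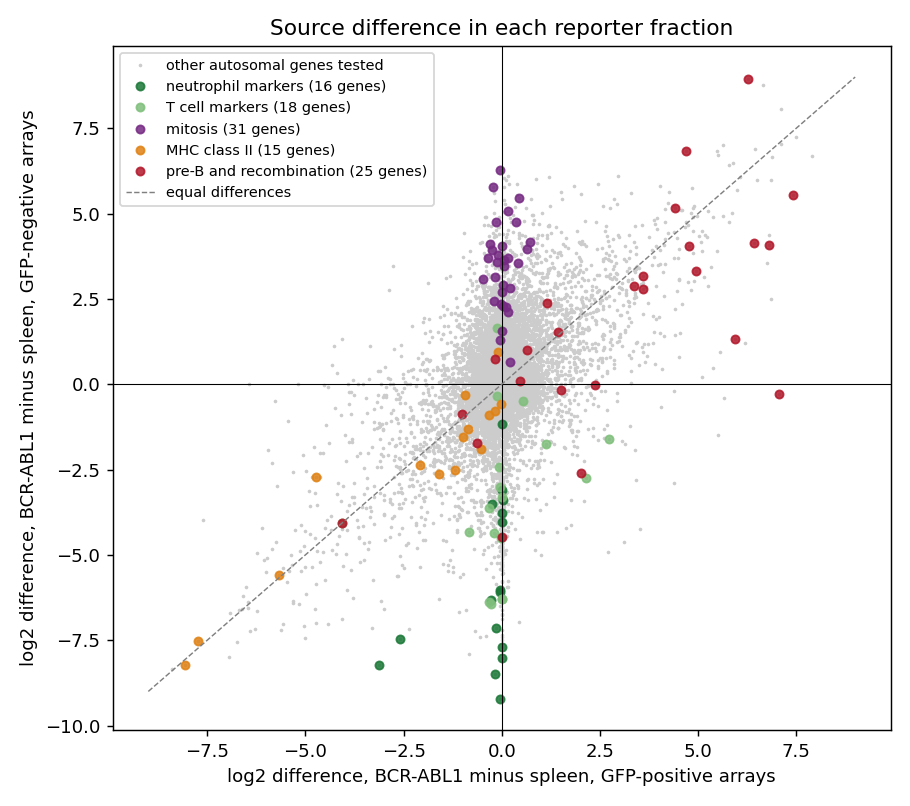
Log2 difference of BCR-ABL1 minus spleen in GFP-positive arrays (horizontal) against the same in GFP-negative arrays (vertical), 1 point per autosomal gene, with 5 gene lists in colour and a dashed line of equal differences. The axes subtract means of separate arrays and groups, which were normalized and fitted together. Mitotic genes lie along the vertical axis above 0 (medians 3.59 and 0.02), most neutrophil genes near it below 0 (medians -6.21 and -0.04), while class II genes have medians of -1.89 and -0.98 and pre-B genes of 1.53 and 3.37.

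Genes of the MYC network and of ribosome biogenesis were higher in 18 and lower in 3 of 27, with a median of 0.41. That was 66.7% and 11.1%, beside 45.4% and 32.9% of all genes. In the GFP-positive arrays 3 were higher and 13 lower. Mycn, a MYC family member of embryonic and progenitor cells, read 9841 and 9642 in the BCR-ABL1 arrays and 32 and 41 in the spleen arrays, a difference of 8.07 ± 0.12 (SE, n = 2 against 2; adjusted p = 1.13e-09). Its GFP-positive signals were 9565 and 9835 in the BCR-ABL1 GFP-positive arrays and 71.8 and 68.9 in the spleen GFP-positive arrays. Myc itself differed less, with 3362 and 3589 in the BCR-ABL1 arrays and 1952 and 2030.2 in the spleen arrays and a difference of 0.80 ± 0.064 (adjusted p = 5.44e-06), or 1.22 after shifting arrays to the same median. Mycn was high in all 4 BCR-ABL1 arrays and low in all 4 spleen arrays, while Myc was present in all 8. Srm, spermidine synthase, and Cad, of pyrimidine synthesis, differed by 1.66 ± 0.053 and 1.51 ± 0.074, and Npm1, nucleophosmin, by 0.26 ± 0.041. Mxd1, a MAX partner that opposes MYC, differed by -1.99 ± 0.11 (adjusted p = 5.31e-07).

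Genes of glycolysis and of the hypoxia response were higher in 21 of 22 and lower in 1, with a median of 1.57. That was 95.5% and 4.55%, beside 45.4% and 32.9% of all genes. In the GFP-positive arrays 9 were higher and 4 lower, with a median of 0.07. Tpi1 and Ldha, glycolytic enzymes, differed by 2.11 ± 0.037 and 1.05 ± 0.039. Egln3, a prolyl hydroxylase induced by low oxygen, read 1289 and 1495 in the BCR-ABL1 arrays and 32 and 32.6 in the spleen arrays, a difference of 5.43 ± 0.19 (adjusted p = 3.82e-08). Vegfa, the angiogenic factor, read 1168 and 1045 in the BCR-ABL1 arrays and 60 and 65.4 in the spleen arrays, a difference of 4.14 ± 0.18 (adjusted p = 1.3e-07), and Bnip3 6462 and 6612 in the BCR-ABL1 arrays and 1246 and 1095 in the spleen arrays. Car9, a carbonic anhydrase of hypoxic cells, read 208 and 222 in the BCR-ABL1 arrays and 32 in both spleen arrays, a difference of at least 2.75 ± 0.15, or 1.75 at a floor of 64. Egln3, Vegfa, Bnip3 and Car9 were also higher in the GFP-positive arrays, by 2.87 ± 0.19, 2.00 ± 0.18, 1.33 ± 0.074 and 2.30 ± 0.15. Slc2a3, a glucose transporter of leukocytes and neurons, was the lower member with -1.15 ± 0.08 (adjusted p = 2.47e-06).

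Sterol synthesis genes were higher in 15 and lower in 3 of 20 in the GFP-negative arrays, with a median of 0.59. That was 75% and 15%, beside 45.4% and 32.9% of all genes. The GFP-positive arrays gave 0 higher and 16 lower by limma, with a median of -0.51. Sqle, squalene epoxidase, read 1588 and 1559 in the BCR-ABL1 arrays and 629 and 356 in the spleen arrays and 1690.3 and 1630.4 in the BCR-ABL1 GFP-positive arrays and 2643 and 2533 in the spleen GFP-positive arrays. Lss, which closes the sterol ring, read 627 and 636 in the BCR-ABL1 arrays and 249 and 253 in the spleen arrays and 754 and 745 in the BCR-ABL1 GFP-positive arrays and 2091 and 2262 in the spleen GFP-positive arrays. BCR-ABL1 signals lay between those of the 2 spleen fractions for both genes. The differences in the GFP-negative arrays were 1.73 ± 0.22 (adjusted p = 9.41e-05) and 1.33 ± 0.085 (adjusted p = 1.43e-06). Insig1, the sterol sensor that restrains the pathway, was lower in both comparisons, -0.49 ± 0.041 and -0.48 ± 0.041, or -0.27 in the GFP-negative arrays after shifting arrays to the same median.

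CDK inhibitors and tumour suppressors were higher in 10 and lower in 5 of 15, 66.7% and 33.3%, with a median of 1.20. The p53 targets were higher in 10 and lower in 8 of 19, 52.6% and 42.1%. Both stand beside 45.4% and 32.9% of all genes. With the mean of probe sets 12 p53 targets were higher and 5 lower. By the GFP-positive comparison 7 CDK inhibitors and tumour suppressors were higher and 3 lower, and 10 p53 targets were higher and 3 lower. Cdkn2a, the locus of p16 and p19ARF, read 1360.1 and 1419 in the BCR-ABL1 arrays and 32 in both spleen arrays, a difference of at least 5.44 ± 0.11 (adjusted p = 3.28e-09), and 1794 and 1880 in the BCR-ABL1 GFP-positive arrays and 582 and 687 in the spleen GFP-positive arrays. Which of the 2 transcripts the probe set reads was not determined. Cdkn2c, which codes for p18, read 2060.2 and 2178 in the BCR-ABL1 arrays and 233 and 255 in the spleen arrays, a difference of 3.12 ± 0.087 (adjusted p = 1.27e-08). Cdkn1a, the p21 gene and a p53 target, read 5703 and 5663 in the BCR-ABL1 arrays and 1092 and 1117 in the spleen arrays, a difference of 2.36 ± 0.051 (adjusted p = 4.07e-09) with 2.07 ± 0.051 in the GFP-positive arrays. Zmat3 and Phlda3, also p53 targets, differed by 2.81 ± 0.12 and 3.27 ± 0.19. Other p53 targets were lower, with Btg2, an antiproliferative factor, at -2.02 ± 0.069, Plk2, a kinase, at -1.14 ± 0.17, Gadd45a, a stress response gene, at -0.84 ± 0.082, Sesn1, a sestrin, at -0.70 ± 0.072 and Pmaip1, the NOXA gene, at -0.68 ± 0.063. After shifting arrays to the same median Plk2, Gadd45a, Sesn1 and Pmaip1 gave -0.59, -0.40, -0.32 and -0.25. Btg1, related to Btg2, differed by -1.21 ± 0.048, or -2.04 with the mean of its probe sets, and Cdkn1b, the p27 gene, by -0.92 ± 0.11. In the BCL2 family 8 of 13 were higher and 4 lower, 61.5% and 30.8% beside 45.4% and 32.9% of all genes. By the GFP-positive comparison 5 were higher and 2 lower. Bak1 and Bad, which promote apoptosis, differed by 1.95 ± 0.067 and 2.03 ± 0.31, and Mcl1, which opposes it, by -0.75 ± 0.043.

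Genes of stem and progenitor cells were higher in 5 and lower in 8 of 15, with a median of -0.89. That was 33.3% and 53.3%, beside 45.4% and 32.9% of all genes. In the GFP-positive arrays 4 were higher and 5 lower. Myb, a factor of dividing progenitors, differed by 0.62 ± 0.043 (adjusted p = 2.47e-06), or 1.01 with the mean of its probe sets. Csf2rb, the shared receptor chain for IL-3, IL-5 and GM-CSF, differed by 0.60 ± 0.089 (adjusted p = 0.000303), or 0.91 after shifting arrays to the same median. Lmo2, a scaffold protein of stem and germinal centre B cells, read 204 and 244 in the BCR-ABL1 arrays and 2528 and 2760.3 in the spleen arrays and 175 and 177 in the BCR-ABL1 GFP-positive arrays and 5304 and 5135 in the spleen GFP-positive arrays, low in all 4 BCR-ABL1 arrays. Meis1, a homeobox factor, read 32 in both BCR-ABL1 arrays and 626 and 613 in the spleen arrays and 32 in all 4 GFP-positive arrays. Matrix and junction genes were higher in 7 and lower in 7 of 15, 46.7% each beside 45.4% and 32.9% of all genes. In the GFP-positive arrays 8 were higher and 1 lower. Gja1, connexin 43, read 2223 and 2107 in the BCR-ABL1 arrays and 637 and 696 in the spleen arrays and 321 and 277 in the BCR-ABL1 GFP-positive arrays and 32 in both spleen GFP-positive arrays, and Itga6, the integrin alpha 6 chain, differed by 1.47 ± 0.073 (adjusted p = 3.1e-07). Fn1, fibronectin, which macrophages and stroma make, read 62.4 and 68.5 in the BCR-ABL1 arrays and 2324 and 2661 in the spleen arrays and 49.7 and 52.3 in the BCR-ABL1 GFP-positive arrays and 53.1 and 58.8 in the spleen GFP-positive arrays.

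Outside the lists, the 15 autosomal genes with the largest positive differences included Myl10, a myosin regulatory light chain gene, with 15586 and 15508 in the BCR-ABL1 arrays and 36.9 and 34.1 in the spleen arrays and a difference of 8.78 ± 0.074 (SE, n = 2 against 2; adjusted p = 3.17e-10). Scn4b, a sodium channel beta subunit, read 6498 and 6473 in the BCR-ABL1 arrays and 54.2 and 33.3 in the spleen arrays, and Ccn3, a secreted matrix-associated protein, 4189 and 4178 in the BCR-ABL1 arrays and 32 in both spleen arrays. Tgfb3, a TGF-beta ligand, read 3834 and 3759 in the BCR-ABL1 arrays and 32 in both spleen arrays, and Pgf, placental growth factor, 3349.8 and 3364 in the BCR-ABL1 arrays and 32 in both spleen arrays. Gldc, glycine decarboxylase, read 4772 and 5395 in the BCR-ABL1 arrays and 32 and 47.9 in the spleen arrays. All 6 genes were called higher in the GFP-positive comparison too, with differences of 6.65, 7.48, 7.10, 6.46, 5.51 and 5.62. Among the 15 with the largest negative differences, Fcmr, the IgM Fc receptor, read 32 and 33.5 in the BCR-ABL1 arrays and 5461 and 5984 in the spleen arrays, and Clec4d, a myeloid lectin, 39.5 and 33.4 in the BCR-ABL1 arrays and 8642 and 8605 in the spleen arrays. S100a8, S100a9, Lcn2, Camp, Ngp and Clec4d of the marker lists were among these 15, as were Cd83, H2-Aa and H2-Eb1. The first 6 differed in the GFP-positive arrays by -0.04, -0.18, -3.13, 0.00, 0.00 and -0.84, and the last 3 by -8.39, -8.07 and -7.74.

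Among the 10 further genes with the largest contrasts between fractions were markers of other cells. Klrd1, the CD94 receptor of NK cells, read 169 and 186 in the BCR-ABL1 arrays and 4712 and 4135 in the spleen arrays and 296 and 313 in the BCR-ABL1 GFP-positive arrays and 32 and 39 in the spleen GFP-positive arrays, and its difference turned from -4.64 ± 0.14 to 3.11 ± 0.14. Ltf, the lactoferrin of neutrophil granules, read 33.6 and 32.5 in the BCR-ABL1 arrays and 4659 and 4765 in the spleen arrays and 38.3 and 39.6 in the BCR-ABL1 GFP-positive arrays and 46.2 and 40.9 in the spleen GFP-positive arrays. Genes called higher in both comparisons numbered 1834 (15.5%) and lower in both 1448 (12.2%). Genes called in opposite directions, with the contrast called, numbered 1022 (8.62%) for higher in the GFP-negative and 657 (5.54%) for lower there. The 2 comparisons subtract means of separate arrays but share the normalization, the filter and the variance estimates.

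**Figure D4:**
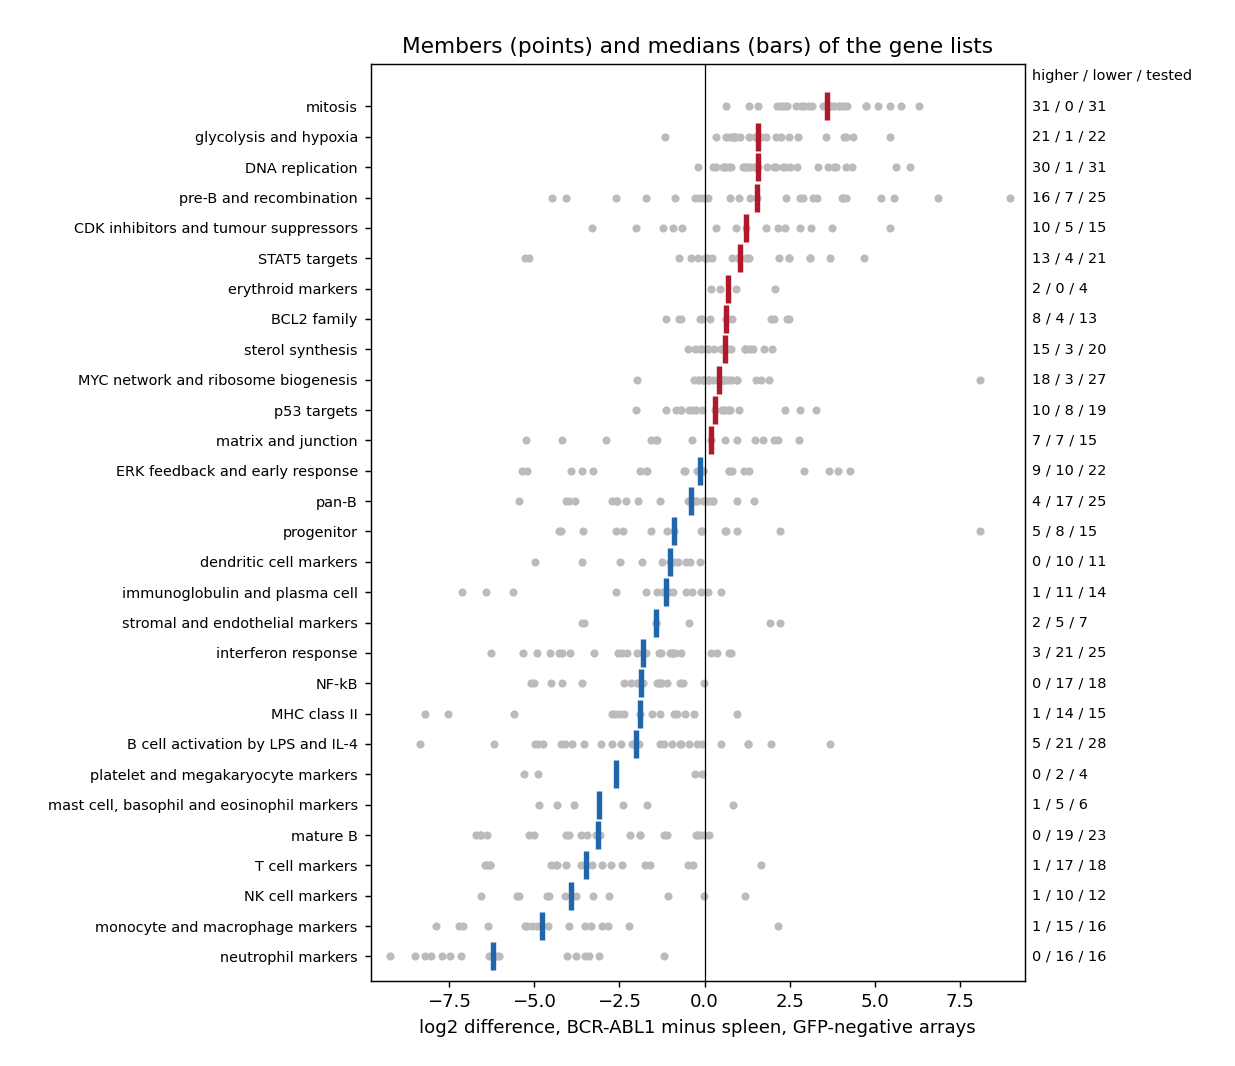
Log2 difference of BCR-ABL1 minus spleen in GFP-negative arrays (horizontal) for the tested members of 29 gene lists, 1 grey point per gene and 1 bar at the median, red above 0 and blue below, with counts called higher and lower of those tested at the right. Mitosis has the highest median (3.59) and neutrophil markers the lowest (-6.21).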

How the data were processed

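Mouse Affymetrix arrays were hybridised with RNA of 4 groups, 2 arrays each. Per the labels, RNA was extracted with a column kit and labelled by the manufacturer's standard protocol, and the submitters' processing notes name GCOS 1.3. The deposited table holds linear signal intensities of 45101 probe sets. The way the authors summarised probes and scaled arrays is not given in the sources used here, and detection calls were not used. Column medians of the deposited intensity were 73.94 and 72.62 in BCR-ABL1 GFP-negative, 72.56 and 72.86 in BCR-ABL1 GFP-positive, 78.52 and 79.85 in spleen GFP-negative, and 70.52 and 71.39 in spleen GFP-positive arrays.

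After 64 controls were left out, the platform annotation gave 34945 probe sets 1 symbol, 932 more than 1 and 9160 no symbol, and 34741 matched RefSeq by Entrez ID. Trimmed means differed by a ratio of 1.25, so arrays were quantile normalized, then floored at 32 and log2 transformed. The dimmest 40% of probe sets by mean log2 value (signals under 51.0) were left out, and the brightest tested probe set stood for each gene. Limma 3.58.1 in R 4.3.3 (lmFit, eBayes with trend) fitted all 8 arrays, estimating a mean for each group, which left 4 residual degrees of freedom. The procedure was tested on simulated data. The number of arrays limits precision. The comparison, the 30 gene lists and the rule for naming genes were chosen with earlier results of these data known. Genes named are list members, the 15 highest and 15 lowest differences, and 10 with the largest contrast between fractions. Alternatives covered scale, floor, filter, moderation, probe sets, arrays in the fit, single arrays left out, a replicate block and a 2-fold threshold.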

Additional observations from a re-analysis of the deposited data

Results flagged for a closer look

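The source difference was not the same in the 2 reporter fractions for 8166 of 11851 genes, by a test of the contrast between them. Of the 185 named genes, 14 (7.57%) were called in opposite directions in the fractions with that contrast called, beside 1679 (14.2%) of all genes. Of the 14, 3 (Klrd1, Lyz2 and Il7r) were named by the rule for the largest contrasts. In 9 the signal of the brightest probe set was lower in BCR-ABL1 cells in the GFP-negative and higher in the GFP-positive arrays. The GFP-negative difference minus the GFP-positive one was -7.74 for Klrd1, an NK cell receptor gene, and -7.64 for Lyz2, a myeloid lysozyme gene. It was -7.33 for Il7r and -4.63 for Nt5e, surface proteins of lymphocytes whose probe sets disagreed in direction. In the GFP-negative arrays the brightest probe set of Il7r gave -0.28 and another 0.75, and those of Nt5e gave -2.61 and 0.57. The contrast was -4.99 for Ifit3, an interferon response gene, -2.36 for Sdc1, -2.29 for Cxcr4 and -1.75 for Sesn1, a p53 target. For Ebf1, a B lineage factor whose probe sets disagreed, it was -0.85. The other 5 were higher in the GFP-negative and lower in the GFP-positive arrays. Their contrasts were 1.26 for Gbp3 and 1.33 for Gbp2, guanylate-binding proteins, 1.97 for Srm, spermidine synthase, and 2.37 for Sqle and 2.86 for Lss, enzymes of sterol synthesis. With 2 arrays per group, a single array lying apart from its group could not be tested.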

How the results depend on the processing

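Counts of called genes stayed within 1.5 times of the reported ones under most alternatives. Counting every probe set gave 17135 calls for the GFP-negative comparison, 10147 for the GFP-positive one and 15109 for their contrast, because more features were tested. Requiring at least 2-fold gave 4573, 1835 and 4337. Leaving out 1 array at a time gave 8335 to 9386, 4495 to 4993 and 7317 to 8719 calls, with the lone array of a group assumed to vary like the others. The labels share only a replicate number between groups. Deviations of same-numbered arrays correlated at 0.129 to 0.286, and a replicate block gave 9635, 6517 and 8592 calls. Of 185 named genes, 172 kept direction and call under the alternatives other than the 2-fold threshold. With probe sets of a gene averaged, the direction reversed for Igll1 (2.46), Il7r (0.23), Ebf1 (0.96), Cd247 (-1.14) and Cdt1 (0.05), and for Cdt1 also after shifting arrays to the same median (0.10). For these genes the probe sets disagreed, and the cause was not tested. Signals near the floor of 32 set a limit on differences of genes that are dim in either source.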
